A study of Mus musculus with 8 samples.

Results

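The crystallin genes described here are 10 entries of a whole-cornea expression table of 24918 entries, taken by gene symbol: the alpha genes Cryaa and Cryab, the beta genes Cryba1, Cryba2, Cryba4, Crybb1 and Crybb3, and the gamma genes Crygc, Crygd and Crygs. All 10 were found, each at a single locus. RNA sequencing was done on 8 libraries from male mice aged 3 months on a C57BL/6J/FVB background, each library a pool of 4 to 6 corneas. The 4 GRflox libraries (genotype GRloxP/loxP-PAX6+/+, replicates 1, 3, 4 and 5) came from mice homozygous for a floxed glucocorticoid receptor gene without Cre. The 4 corneaGRKO libraries (GRloxP/loxP-PAX6Cre/+, same replicate numbers) came from littermates that also carried Cre under the P0 promoter of Pax6, which is aimed at the corneal epithelium. The floxed alleles were common to both groups and Cre was absent from the controls, and an effect of Cre itself cannot be told apart from that of losing the receptor. Stroma and endothelium remain in a whole cornea. Whether Cre acted in other tissues, the lens among them, was not measured. The study's title names corneal development, inflammation and vessel growth as the questions put to this comparison.

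Crystallins are the most abundant soluble proteins of the eye lens, where their dense packing gives transparency and refraction. The alpha crystallins are small heat shock proteins that hold unfolding proteins in solution, and alpha-B crystallin is also made in many other tissues, among them muscle and cornea. The beta and gamma crystallins share a fold and are made mainly in elongating lens fibre cells, under transcription factors of the Maf, Sox, Prox and Pax families. The lens lies behind the cornea and is not part of it.

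The sequences around the start sites of the genes are shown as background. Whether they bear on the shared movement of 9 of the 10 genes across libraries, described further on, was not tested. RefSeq promoters (build GRCm38.p6, 250 bases before to 50 after the annotated start, printed in the direction of transcription) were matched for 9 genes, all except Cryab. A core recognised by Maf proteins, TGCTGA read on both strands, was present in 8 of the 9, against 19.5% of all 32851 promoters of the same length. Capitals mark it below in Cryaa (chr17:31677681-31677980, plus strand), in Cryba4 (chr5:112252469-112252768, minus strand), which held 3 copies, and in Crybb1 (chr5:112255570-112255869, plus strand). Crygd (chr1:65063391-65063690, minus strand) is shown as the promoter without a match.
Cryaa: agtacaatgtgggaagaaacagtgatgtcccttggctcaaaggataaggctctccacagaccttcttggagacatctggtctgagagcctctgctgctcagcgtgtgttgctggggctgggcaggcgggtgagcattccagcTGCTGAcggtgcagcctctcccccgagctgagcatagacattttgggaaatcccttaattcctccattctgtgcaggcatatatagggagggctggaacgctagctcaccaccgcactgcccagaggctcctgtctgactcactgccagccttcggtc
Cryba4: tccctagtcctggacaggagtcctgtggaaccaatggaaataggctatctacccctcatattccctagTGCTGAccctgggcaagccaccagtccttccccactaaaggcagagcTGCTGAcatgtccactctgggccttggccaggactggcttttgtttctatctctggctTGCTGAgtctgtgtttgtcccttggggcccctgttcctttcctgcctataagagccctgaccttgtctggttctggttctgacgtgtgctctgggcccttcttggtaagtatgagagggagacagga
Crybb1: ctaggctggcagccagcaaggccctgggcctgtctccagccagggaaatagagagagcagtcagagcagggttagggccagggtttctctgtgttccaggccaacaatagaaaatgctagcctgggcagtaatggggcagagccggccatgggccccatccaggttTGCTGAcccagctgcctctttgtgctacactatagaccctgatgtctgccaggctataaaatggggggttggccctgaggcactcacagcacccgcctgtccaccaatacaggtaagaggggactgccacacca
Crygd: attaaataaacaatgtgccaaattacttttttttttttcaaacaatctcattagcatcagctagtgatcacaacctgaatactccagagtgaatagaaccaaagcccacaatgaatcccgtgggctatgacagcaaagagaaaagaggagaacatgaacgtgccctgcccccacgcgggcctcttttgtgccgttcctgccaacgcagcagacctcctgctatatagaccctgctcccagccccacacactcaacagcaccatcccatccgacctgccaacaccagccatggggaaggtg

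The first base of the match lay 108 bases before the start in Cryaa, 84 in Crybb1, 57 in Cryba1 and 67 in Crybb3. In Cryba4 the copies began 182, 135 and 77 bases before the start. The matches of Cryba2, Crygs and Crygc were farther away, at 149, 200 and 229 bases. The longer string TGCTGAC, which contains the shorter one, occurred in 4 of the 9 promoters (Cryaa, Cryba1, Cryba4 and Crybb1), against 4.67% of all. The TATA string TATAAA, read on the coding strand, occurred in Cryba1, Cryba2, Crybb1 and Crygs (4 of 9, against 8.32%). It began 30 bases before the start in Crybb1, 25 in Crygs and 23 in Cryba1, but only 3 in Cryba2. The string AACAAT, bound by Sox proteins and read on both strands, was found in Crybb1, Crygd and Crygs (3 of 9, against 10.7%). The core of the glucocorticoid response element, searched as ACANNNTGT on both strands, matched in Cryba2 alone (1 of 9, against 6.85%). The heat shock element core GAANNTTC matched in 0 of the 9, against 7.86% of all promoters. These matches describe the letters in the windows, and binding was not measured.

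**Figure D1:**
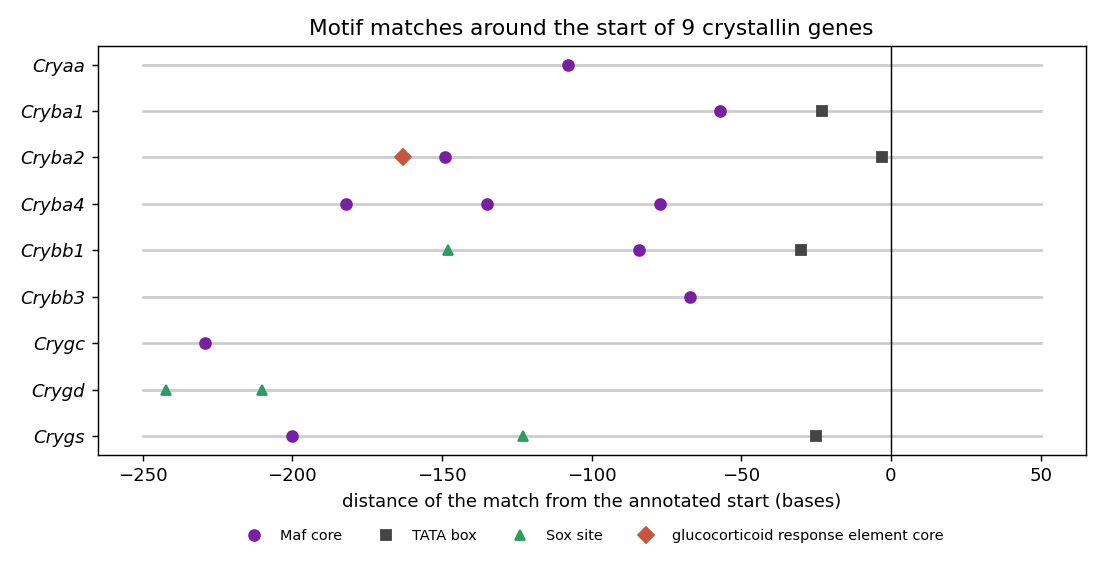
Matches of 4 of the motifs around the annotated start of 9 crystallin genes. The horizontal axis is the distance in bases from the start, each grey line is a promoter, and each symbol is the first base of a match. Maf core matches lie between 57 and 229 bases before the start in 8 of the 9 genes.

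The libraries carried the marks of cornea. The 8 genes of a corneal epithelium list, with the keratin gene Krt12 and the enzyme gene Aldh3a1 among them, had log2 values from 12.21 to 20.20. Nr3c1, the gene of the glucocorticoid receptor, had a log2 value lower in corneaGRKO (difference -0.47, SE 0.064, n = 4 per group, limma adjusted p = 0.00767), and the groups did not overlap. Pax6, whose promoter drove Cre, differed by -0.01 (SE 0.0476, limma adjusted p = 0.935). Libraries corneaGRKO replicate 4 and, less so, replicate 1 stood apart in photoreceptor genes: the mean of the centred log2 values of a list of 16 was 0.70 and 0.11 there, against -0.17 to -0.08 in the other 6. Depth per library is not known, since the values are normalized, and a deposited log2 scale may compress the differences of weakly expressed genes. Replicates are separate pools of corneas, and every p-value here is set against pool-to-pool variation.

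No crystallin gene passed the test between the genotypes. All 10 had a mean log2 value of at least 5 and were tested, and 0 passed a limma adjusted p of 0.05, against 1.85% of the 13269 genes tested. At an unadjusted p of 0.05 the count was also 0, against 16.5% of all tested genes. Adjusted p-values ran from 0.533 (Crygd) to 0.992 (Cryaa). The difference was above 0 in 3 genes and below 0 in 7, with a median of -0.035, beside a median of -0.00867 over all tested genes. In 0 of the 10 were the groups separated, against 10.5% of all tested genes. In bulk tissue fewer cells of a type and less RNA per cell cannot be told apart.

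Cryaa, which encodes alpha-A crystallin, was the member with the widest spread. Its log2 values in GRflox replicates 1, 3, 4 and 5 were 8.80, 10.11, 9.93 and 8.64, and in corneaGRKO replicates 1, 3, 4 and 5 they were 10.15, 8.68, 8.29 and 10.42. Each genotype thus held a pair of high libraries and a pair of low ones, and the groups overlapped fully. The highest GRflox library stood 2.77-fold above the lowest on this scale, and the highest corneaGRKO library stood 4.38-fold above the lowest. The difference between the group means of 9.37 ± 0.758 and 9.38 ± 1.06 (SD, n = 4 each) was 0.01 (SE 0.499, limma adjusted p = 0.992). Its 95% interval ran from -1.10 to 1.12. Cryab, the other alpha gene and the small heat shock protein gene with the wider tissue range, did not share this spread. It lay at 10.86, 11.06, 10.75 and 10.87 in GRflox and at 11.01, 10.91, 10.82 and 10.99 in corneaGRKO. All 8 values of Cryab fell within 0.31 on the log2 scale. The genotype difference of Cryab was 0.05 (SE 0.0658, 95% interval -0.09 to 0.20, limma adjusted p = 0.719).

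**Figure D2:**
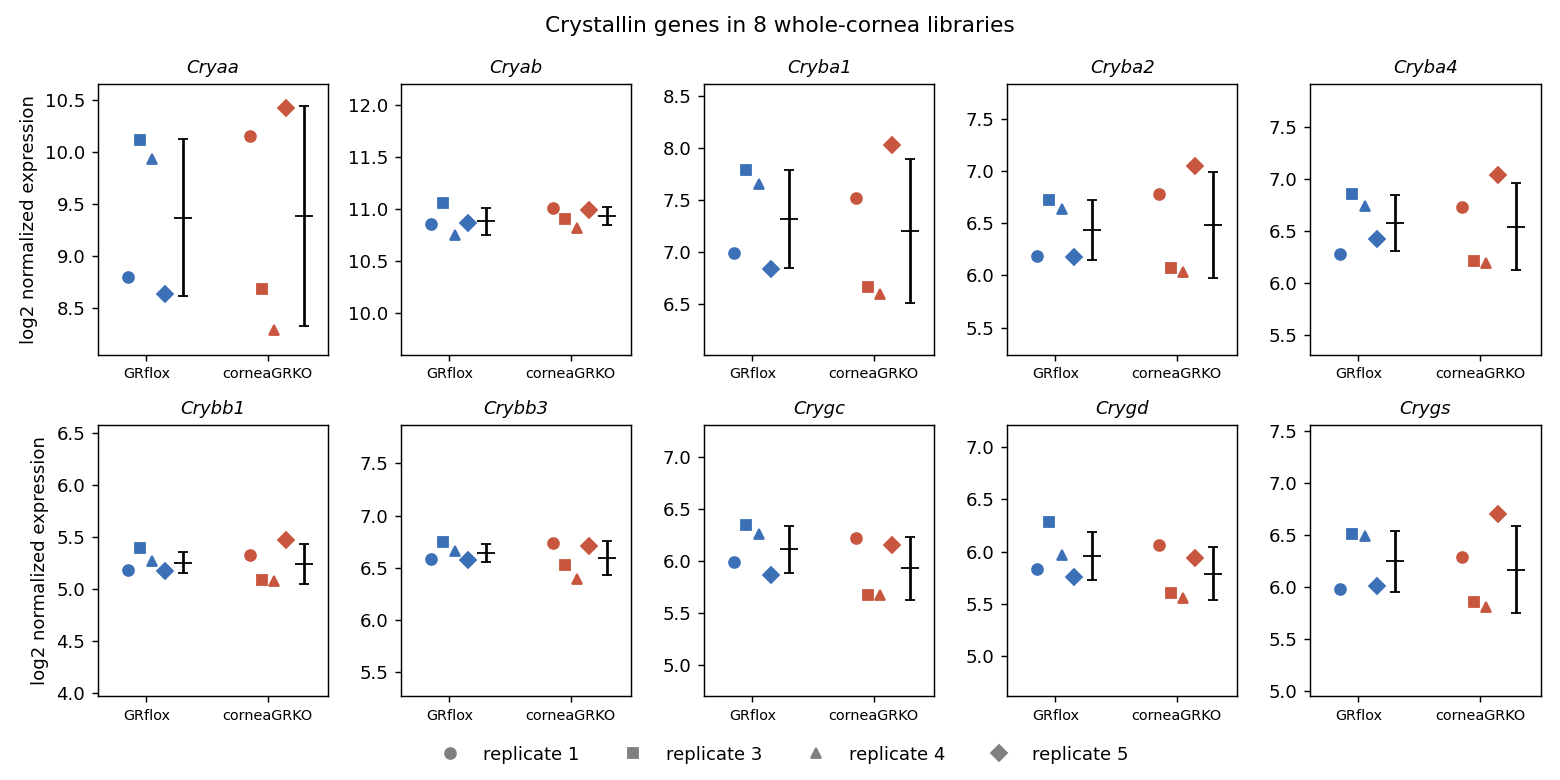
Log2 normalized expression of the 10 crystallin genes in each library, by genotype, with the symbol shape giving the replicate and the bar the mean ± SD (n = 4). Every panel spans the same number of log2 units; GRflox replicates 3 and 4 and corneaGRKO replicates 1 and 5 lie above the other 4 libraries in all genes but Cryab.

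Cryba1, the gene of the beta-A3/A1 crystallin, had the widest spread of the beta genes. Its values were 6.99, 7.79, 7.65 and 6.84 in GRflox replicates 1, 3, 4 and 5 and 7.52, 6.66, 6.60 and 8.03 in corneaGRKO. The same libraries were high as for Cryaa. The genotype difference of Cryba1 was -0.12 (SE 0.324, 95% interval -0.83 to 0.60, limma adjusted p = 0.881). Cryba2, another acidic beta crystallin gene, was at 6.19, 6.72, 6.64 and 6.18 in GRflox and at 6.78, 6.07, 6.03 and 7.05 in corneaGRKO. Cryba4, the third acidic gene, was at 6.28, 6.86, 6.74 and 6.42 in GRflox and at 6.73, 6.21, 6.19 and 7.04 in corneaGRKO. In both genes corneaGRKO replicate 5 was the highest of all 8 libraries and corneaGRKO replicate 4 the lowest. The genotype differences were 0.05 (SE 0.227) for Cryba2 and -0.03 (SE 0.192) for Cryba4, with limma adjusted p of 0.929 and 0.95.

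The basic beta crystallin genes Crybb1 and Crybb3 had the same 4 libraries at the top, over a smaller range. Crybb1 was at 5.18, 5.39, 5.27 and 5.17 in GRflox and at 5.33, 5.09, 5.08 and 5.47 in corneaGRKO. Crybb3 was at 6.58, 6.75, 6.66 and 6.57 in GRflox and at 6.74, 6.53, 6.39 and 6.71 in corneaGRKO. Neither gene separated the groups. Crybb1 differed by -0.01 (SE 0.0861, limma adjusted p = 0.95) and Crybb3 by -0.04 (SE 0.0761, limma adjusted p = 0.792), with 95% intervals from -0.21 to 0.18 and from -0.21 to 0.12.

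The gamma crystallin genes Crygc and Crygd had the largest differences of the 10, both below 0 and neither past the threshold. Crygc was at 5.99, 6.34, 6.26 and 5.86 in GRflox and at 6.22, 5.67, 5.67 and 6.15 in corneaGRKO. Crygd, which lies beside Crygc on chromosome 1, was at 5.83, 6.28, 5.97 and 5.76 in GRflox and at 6.06, 5.60, 5.55 and 5.94 in corneaGRKO. In both genes GRflox replicate 3 was the highest library and corneaGRKO replicates 3 and 4 were the lowest. Crygc differed by -0.18 (SE 0.146, 95% interval -0.51 to 0.14, limma adjusted p = 0.55) and Crygd by -0.17 (SE 0.133, 95% interval -0.47 to 0.12, limma adjusted p = 0.533). Crygs, on chromosome 16, encodes gamma-S crystallin. It was at 5.98, 6.51, 6.49 and 6.01 in GRflox and at 6.29, 5.86, 5.81 and 6.70 in corneaGRKO. Its difference was -0.08 (SE 0.197, limma adjusted p = 0.861).

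**Figure D3:**
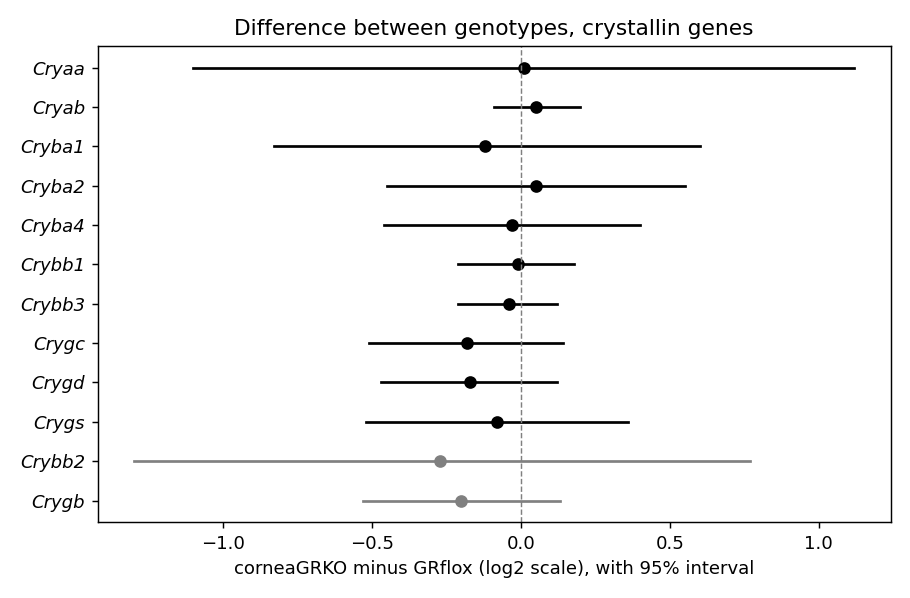
Difference between genotypes for the 10 crystallin genes (black) and for Crybb2 and Crygb (grey), on the log2 scale. Points are corneaGRKO minus GRflox and lines are 95% intervals from limma (n = 4 per group); each interval includes 0, and that of Cryaa runs from -1.10 to 1.12.

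The gamma values carry an added uncertainty, because these genes are close copies of each other. Of the distinct 75-base stretches of Crygc transcripts, the length of a read, 18.7% also occurred in Crygb. For Crygd, 20.6% occurred in Cryge or Crygf. The counting could have split or dropped such reads. Cryab shared 12.4% of its stretches with transcripts of its neighbour Hspb2, and Cryaa shared 3.55% with another annotated transcript, while the 5 beta genes and Crygs shared 0.

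Compared per kilobase of annotated exon, the mean levels formed a clear order at the top and a tied middle. Cryab was highest at 10.54 on the log2 scale per kilobase, followed by Cryaa at 8.95, Cryba1 at 7.62 and Cryba2 at 6.93. Each of these first 3 stood above the next in 8 of 8 libraries. From Cryba2 down to Crygc the level per kilobase ran through Cryba4 at 6.81, Crybb3 at 6.73, Crygd at 6.58 and Crygs at 6.40 to 6.37. Neighbours in that stretch changed places between libraries. Cryba2 stood above Cryba4 in 7 of 8 libraries, and Crybb3 above Crygd in 7. Cryba4 stood above Crybb3 in 4, Crygd above Crygs in 6 and Crygs above Crygc in 4. Crybb1 was lowest at 5.38 per kilobase and stood below Crygc in 8 of 8.

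The spread of the crystallin genes within a genotype was among the widest of any gene in the table. Cryaa had the largest within-genotype SD of the 13269 tested genes, 0.919 log2 units, and Crybb2 ranked 3rd at 0.855. Cryba1 ranked 8th at 0.595, Cryba2 ranked 25th, Crygs 45th and Cryba4 52nd, so that 5 of the 10 members were among the 100 most variable genes. Crygc ranked 119th, Crygd 156th, Crybb1 735th, Crybb3 1315th and Cryab 2263rd. The median within-genotype SD was 0.308 over the 10 members and 0.0681 over all tested genes. Cryaa varied in both groups, with an SD of 0.758 in GRflox and 1.06 in corneaGRKO. Cryaa stayed first under every change of filter or scaling tried. It ranked 2nd without GRflox replicate 1, 3, 4 or 5 or without corneaGRKO replicate 1 or 5.

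**Figure D4:**
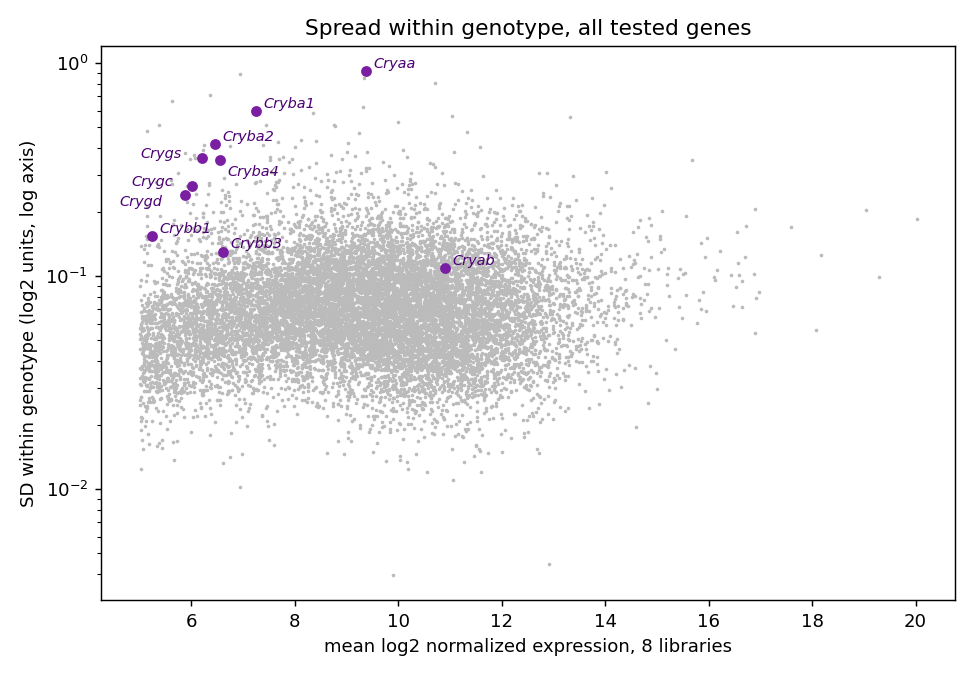
SD within genotype (log axis) against mean log2 expression for the 13269 tested genes (grey), with the 10 crystallin genes in purple. Cryaa has the largest SD, 0.919, and Cryab, at 0.109, ranks 2263rd, above the median of 0.0681 over all tested genes.

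The variation was shared. In 9 of the 10 members, all but Cryab, the 4 highest libraries were GRflox replicates 3 and 4 and corneaGRKO replicates 1 and 5. Of all tested genes, 68 (0.512%) had these 4 libraries at the top. The mean of the 8 beta and gamma members, each centred, was -0.15, 0.30, 0.18 and -0.18 in GRflox replicates 1, 3, 4 and 5 and 0.18, -0.32, -0.37 and 0.36 in corneaGRKO. Libraries with the same replicate number in the 2 genotypes lay on opposite sides for replicates 1, 3, 4 and 5.

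Of the 6 other crystallin genes in the table, 2 moved the same way, Crybb2 and Crygb. Crybb2, which encodes a major basic beta crystallin, was at 8.82, 10.09, 9.95 and 9.05 in GRflox and at 9.98, 8.45, 8.20 and 10.21 in corneaGRKO. Crygb was at 6.24, 6.71, 6.58 and 6.25 in GRflox and at 6.53, 6.00, 5.98 and 6.47 in corneaGRKO. Both had the same 4 libraries at the top, and neither passed the test between genotypes (limma adjusted p = 0.796 and 0.518). Cryge, Crygf, Crygn and Cryga did not have these 4 libraries at the top. They were below the level needed for testing, with medians from 0.58 for Cryga to 3.25 for Cryge. No entry was found for Cryba3.

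Lens fibre genes were among the genes whose library pattern came closest to the beta and gamma mean. Likeness was measured as Pearson's r over the 8 libraries, as a description: the same libraries enter every value, and they lie at a high and a low level rather than along a line. Among tested genes outside the crystallin lists, leaving out unnamed gene models, the closest were Bfsp2 (r = 0.942), Lenep (0.933), Dmr (0.924), Mip (0.917) and Bfsp1 (0.917). Ces2g (0.911), Gpr111 (0.905), Zfp454 (0.904), Wdr46 (0.882) and Lgsn (0.871) came next. Bfsp1 and Bfsp2 encode the beaded filament proteins filensin and phakinin, Mip encodes the lens water channel aquaporin 0, and Lgsn encodes lengsin. These 4 and Lenep were 5 of the 10 and belong to the list of lens fibre markers. The rule left out 2 gene models that ranked above Lgsn, and with them kept the count would be 4 of 10. Cryaa itself had r = 0.98 with the beta and gamma mean and Cryab 0.519.

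Mip was at 5.88, 6.36, 6.20 and 5.86 in GRflox and at 6.00, 5.69, 5.73 and 6.69 in corneaGRKO. Lgsn was at 5.84, 6.82, 6.71 and 6.07 in GRflox and at 6.51, 5.87, 5.83 and 6.33 in corneaGRKO. Both had the same 4 libraries at the top as the beta crystallin genes. By contrast Dmr moved between 5.62 and 5.74 and Zfp454 between 5.24 and 5.38, so their likeness rests on small ranges. In 9 of the 14 lens fibre genes the same 4 libraries were highest, among them Mip, Lim2, Bfsp1, Bfsp2, Gja3, Lgsn, Grifin and Lenep. Of these, Lim2, the connexin gene Gja3 and Grifin were below the level needed for testing. Hsf4, Tdrd7 and Caprin2, which were tested, did not share the order (r = -0.311, 0.206 and 0.013 with the beta and gamma mean). Neither did Dnase2b and Birc7, at medians of 0.58 and 0.77, below the level needed for testing. Limma called 0 of the 8 tested lens fibre genes, against 1.85% of all tested genes, with a median difference of -0.06. The part of lens RNA in the crystallin values was not tested.

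Among transcription factors of the lens, 1 of 12, Pitx3, had the same 4 libraries at the top. Of the 12 regulators, 6 were tested and 0 passed, against 1.85% of all tested genes, with a median difference of 0.02. Maf, whose protein binds the core described above, was at 8.95, 9.06, 9.20 and 9.04 in GRflox and at 9.07, 9.19, 9.52 and 9.17 in corneaGRKO. Its highest value was in corneaGRKO replicate 4, the library with the lowest Cryaa and the highest photoreceptor list mean (0.70). Whether Maf levels bear on the crystallin values was not tested. Hsf4, a heat shock factor of the lens, differed by 0.16 (SE 0.0448, limma adjusted p = 0.106). The early lens factors Sox1, Foxe3, Pitx3 and Prox1 were at medians of -0.21, 0.55, 0.80 and 2.42.

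A list of enzyme crystallins and crystallin-like genes kept another order from the lens crystallins. Some of its members, such as Aldh3a1 and Tkt, are abundant in corneal epithelium and are called corneal crystallins for that reason. Aldh3a1, an aldehyde dehydrogenase, was at 19.27, 19.25, 18.94 and 19.18 in GRflox and at 19.20, 18.95, 18.61 and 19.01 in corneaGRKO. Tkt, which encodes transketolase, had its lowest value, 17.22, in the same corneaGRKO replicate 4 as Aldh3a1. Limma called 0 of the 6 tested genes of this list, among them Aldh1a1, Cryz, Cryl1 and Cryzl1, against 1.85% of all tested genes. Of its 7 genes, 0 had the crystallins' 4 highest libraries, against 0.512% of all tested genes. Both counts are near those shares in a list this short. The median difference was -0.06. In the list, Crym was near the bottom of the scale, with a median of -0.82.

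A chaperone list held small heat shock (Hspb) genes, other chaperone and co-chaperone genes and heat shock factors. Of its genes, 0 of 10 tested passed, against 1.85% of all tested genes, with a median difference of -0.04. Hspb1, which encodes HSP27, was at 12.67, 12.57, 12.29 and 12.49 in GRflox and at 12.49, 12.16, 11.92 and 12.21 in corneaGRKO (difference -0.31, SE 0.113, limma adjusted p = 0.202). Hspb8 was at 7.52, 7.51, 7.49 and 7.36 in GRflox and at 7.60, 7.78, 8.43 and 7.66 in corneaGRKO (difference 0.40, SE 0.153, limma adjusted p = 0.223). All corneaGRKO values of Hspb8 lay above all GRflox values, with corneaGRKO replicate 4 the highest. Hspb2, which neighbours Cryab, was between 4.56 and 4.68 and was not tested. Hspa1a, an inducible HSP70 gene, and Hspb3, at a median of -2.20, were the 2 of 14 genes with the same 4 highest libraries as the lens crystallins.

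The list means of photoreceptor, pigment cell and conjunctival markers did not follow the crystallin mean from library to library. The crystallin list mean was -0.19, 0.33, 0.18 and -0.22 in GRflox and 0.23, -0.32, -0.41 and 0.40 in corneaGRKO. The photoreceptor list mean was between -0.17 and -0.14 in GRflox and was 0.11, -0.08, 0.70 and -0.12 in corneaGRKO. Library corneaGRKO replicate 4 thus held the highest photoreceptor mean and the lowest crystallin mean. The pigment cell mean ran from -0.13 to -0.08 in GRflox and from 0.01 to 0.27 in corneaGRKO, and the conjunctival mean from -0.32 to -0.17 and from 0.08 to 0.67. In 0 genes of the photoreceptor (16), other retina (8), pigment cell (8), skeletal muscle (8), smooth muscle (6) and conjunctival (7) lists were the 4 highest libraries those of the crystallins. The same held for 0 genes of the corneal epithelium (8), stromal keratocyte (6) and corneal endothelium (5) lists. The share over all tested genes was 0.512%, so a count of 0 in lists this short is near that share.

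**Figure D5:**
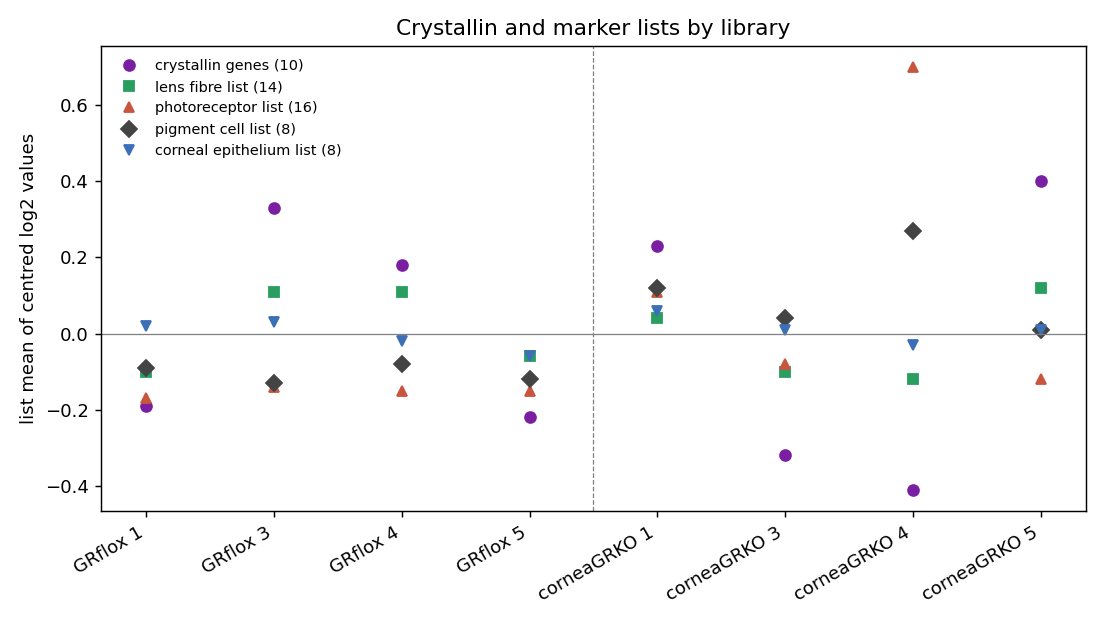
Mean of the centred log2 values of 5 gene lists in each library, GRflox to the left of the dashed line and corneaGRKO to the right. The crystallin and lens fibre means rise and fall together in both genotypes, while the photoreceptor mean peaks at 0.70 in corneaGRKO replicate 4, where the crystallin mean is -0.41.

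Between genotypes, limma called Krt8, Krt13 and Krt19 higher among 6 tested conjunctival genes, Tyrp1 higher among 4 pigment genes, and Kera and Col5a1 lower among 6 keratocyte genes. It called 0 of 6 photoreceptor, 4 other retina, 1 skeletal muscle, 3 smooth muscle, 8 corneal epithelium and 5 corneal endothelium genes. The share called over all tested genes was 1.85%, so counts of 0 in lists this short are near it. With the mean of Mip, Lim2, Bfsp1 and Bfsp2 as a second term, the residual SD of Cryaa around the fit went from 0.919 to 0.25. These genes all had the crystallins' 4 highest libraries, so a smaller residual SD was built into the fit. The cause of the spread was not tested. In that fit Cryaa differed by 0.357 between genotypes (limma adjusted p = 0.29, smallest adjusted p of Cryaa among all fits), and Cryba2 by 0.208 (limma adjusted p = 0.0907, the smallest of any member in any fit). The sign of the Cryaa difference depended on single libraries: it was -0.179 or -0.229 when GRflox replicate 1 or 5 was dropped and -0.241 or -0.331 when corneaGRKO replicate 1 or 5 was dropped, and it was 0.379 without corneaGRKO replicate 4.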

How the data were processed

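RNA of 8 whole-cornea libraries was sequenced as 75 nt pairs, more than 40000000 reads per sample, per the labels. The authors deposited log2 normalized values for 24918 entries, and the submitters' processing notes name Bowtie2, HTSeq and DESeq2 without a version. The build is mm9 in the notes and mm10 in the labels' protocols, so only promoter coordinates, from RefSeq GRCm38.p6, are printed. How the log2 values were transformed is not given in the sources used here, and 5382 entries were exactly 0 throughout. The table held 0 value columns beyond the 8 libraries. Groups and replicate numbers came from the titles.

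Genotypes were compared by limma 3.58.1 (R 4.3.3) in the 13269 entries whose mean reached 5 (variance trended on the mean, no term but group, Benjamini-Hochberg adjustment over all tested entries, two-sided), and the test was checked on simulated data. Differences are corneaGRKO minus GRflox. Exon lengths came from GENCODE M21, also used for 75-base stretches shared between genes. The members, marker lists and alternatives were chosen with earlier results of these data known. Named are the members, other crystallin genes, called or highly expressed list genes and the 10 genes nearest in pattern. Krt12, Gja3, Grifin, Lim2, Tdrd7, Caprin2, Dnase2b, Birc7, the low regulators, Hspb2, Hspb8 and Hspa1a were named after their values were seen. No 2 libraries were duplicates (smallest median absolute difference 0.0427). Alternatives were the replicate number as a block, other filters (none, mean of 7), a pseudocount of 16, median centring, quantile normalization, no trend and each library left out. Leaving out corneaGRKO replicates 1 and 4 together and a lens fibre covariate were added after seeing the data. No count model was used, because no counts are given. A few listed genes are not reported here.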

Additional observations from a re-analysis of the deposited data

How the results depend on the processing

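Under all 17 alternatives 0 crystallin genes passed the limma threshold, and 0 of 163 single values did; 132 kept the sign of the reported difference and 31 did not. With single libraries left out the difference ran from -0.331 to 0.379 for Cryaa, 0.00657 to 0.109 for Cryab, -0.391 to 0.0848 for Cryba1, -0.139 to 0.201 for Cryba2, -0.197 to 0.0872 for Cryba4, -0.0893 to 0.0406 for Crybb1, -0.094 to 0.0234 for Crybb3, -0.281 to -0.0947 for Crygc, -0.263 to -0.0652 for Crygd and -0.259 to 0.0377 for Crygs. Without corneaGRKO replicates 1 and 4 together the sign turned for Cryba1 (0.0265), Cryba4 (0.0546), Crybb1 (0.0224) and Crygs (0.0352), and with the lens fibre covariate for Cryba1 (0.112), Cryba4 (0.103), Crybb1 (0.0438) and Crygs (0.0576); the cause was not tested. The number of genes called among all tested, 245, was 663 with the replicate number as a block and 154 with the lens fibre covariate, and ran from 68 (without GRflox replicate 5) to 574 (without corneaGRKO replicate 1) with single libraries left out. Same-numbered libraries deviated together for replicates 1 (correlation 0.51) and 4 (0.26) but not for 3 (-0.28) or 5 (0.06), so the numbers were not taken to pair the libraries, and with the block 0 crystallin genes passed (smallest adjusted p = 0.507). At the stricter filter 3 of the 10 members were left to test. The wide spread within genotypes limits what 4 libraries a group can show: for Cryaa the interval reaches past 1 log2 unit in both directions, and depth per library is not known.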
